A study of Mus musculus with 2 samples.

Results

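The 10 genes described here encode proteins of the BCL2 family, which decide at the mitochondrial outer membrane whether a cell survives or dies. They are Bcl2, Bcl2l1, Bcl2l2, Mcl1, Bcl2l11, Bad, Bid, Bik, Bmf and Bak1, and they were taken by gene symbol from a table of 45777 genes, where each of the 10 had 1 row. The 2 libraries were made from cultures of the YTN16 line, mouse gastric cancer cells grown in medium with serum. The shControl culture carried a control short hairpin RNA and is labelled as wild type, and the shGas6 culture carried a hairpin that knocks down Gas6, the secreted ligand of the receptor AXL. The series was set up to study this ligand and receptor in the response to immunotherapy. There was 1 library per hairpin, and the labels do not say whether a culture was a pool or 1 clone. Every difference below is therefore between 2 libraries, with no replicate check and no test.

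The family works by binding between its own members. The pro-survival proteins, encoded here by Bcl2, Bcl2l1 (BCL-XL), Bcl2l2 (BCL-W) and Mcl1, hold the effectors BAK and BAX in check. The BH3-only proteins, encoded here by Bcl2l11 (BIM), Bad, Bid, Bik and Bmf, sense stress or loss of attachment or growth factors and occupy the groove of the pro-survival proteins, and some of them activate the effectors directly. Once freed, BAK (encoded by Bak1) and BAX open the outer membrane, cytochrome c leaves, and caspases are activated.

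What joins the members is the BH3 stretch, a short helix, which in the BH3-only proteins fits that groove. The coding bases for it are printed because they show both the shared core and how far the genes differ around it. Each line gives 10 codons of the mouse reference (GENCODE M21 transcripts, GRCm38), 5′ to 3′ on the coding strand. The capitals mark the codon of the hydrophobic residue that opens the core and the pair of codons that ends in the aspartate of the core.
Bcl2: ctgaccCTCcgccgggctGGGGATgacttc
Bcl2l1: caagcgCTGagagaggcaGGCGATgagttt
Bcl2l2: caagccATGcgggctgctGGAGACgagttt
Mcl1: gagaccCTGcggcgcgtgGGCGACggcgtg
Bcl2l11: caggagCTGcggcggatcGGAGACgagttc
Bad: cgtgagCTCcgaaggatgAGCGATgagttt
Bid: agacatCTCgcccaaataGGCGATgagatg
Bik: ttgaggCTGgcctgcatcGGCGATgagatg
Bmf: agaaagCTTcagtgtattGCAGACcagttc
Bak1: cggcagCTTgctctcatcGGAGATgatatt

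In 9 of the 10 members the core opened with a leucine codon, and in Bcl2l2 with a methionine codon. The residue before the aspartate was glycine in 8 members, serine in Bad and alanine in Bmf. Over the 45 pairs of members the printed stretches shared between 10 and 21 of their 30 bases. The most alike were Bcl2l1 and Bcl2l2. The longest run of bases that the coding sequences of any pair had in common was 16, between Bid and Bik. Of 17 reference transcripts of the members that the deposited table also lists, 16 held the core, and the exception was a Bcl2l11 transcript. Counts are per gene and add up all transcripts, so they do not separate forms of Bcl2l11 with and without the core.

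Bmf was the member that differed most between the libraries, at 26.1% of the control level in shGas6. Bid was higher by 1.53-fold and Bcl2l11 by 1.33-fold, while Bcl2 and Bak1 were lower by 1.34-fold and 1.31-fold. Mcl1, Bcl2l1, Bcl2l2 and Bad lay within 1.11-fold of the control. Levels are given as CPM (a count as its part of the TMM-scaled library total, times 1000000), and differences as folds of CPM with 95% intervals for counting error only. Of the 10 members, 9 reached 1 CPM in at least 1 library and are called measured, as were 13367 genes in all. The remaining member, Bik, did not.

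**Figure D1:**
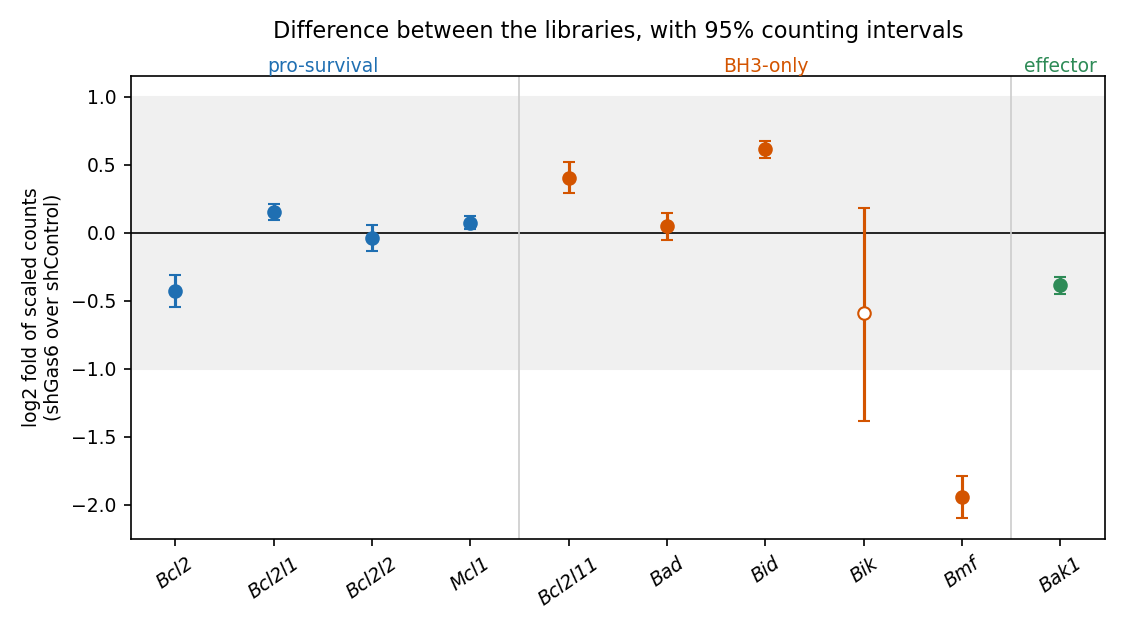
The log2 fold of scaled counts in shGas6 over shControl is on the y axis, for the 10 members grouped by role on the x axis. Points are 1 library against 1 library, bars are 95% intervals for counting error, the grey band marks less than 2-fold, and the open point (Bik) is under 1 CPM in both libraries. Bmf lies below the band at -1.94.

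Counted by size, 1 of the 9 measured members (Bmf) was lower in shGas6 by 2-fold or more, and 0 were higher by as much. Over all measured genes 6.19% were lower by 2-fold or more, 8.64% were higher and 14.8% were either. At 1.5-fold, Bid was higher and Bmf lower, or 22.2% of the 9, against 28.6% of all measured genes (16.0% higher and 12.6% lower). The share of members past either mark was thus close to or below that of all genes, and the counts are no result about the family. The median log2 ratio (shGas6 minus shControl) was 0.05 over the 9 members and -0.01 over all measured genes, with 5 members above 0 and 4 below.

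Among the pro-survival genes, Mcl1 was the most abundant in both libraries. MCL-1 is a short-lived protein that binds BAK and several BH3-only proteins. Mcl1 (gene 17210 of NCBI, chromosome 3, 95656944 to 95663179) had 6808 counts with the control hairpin and 7292 in shGas6. These are 134 and 141 CPM, 1.05-fold higher (1.02 to 1.09). Bcl2l1 (gene 12048, chromosome 2, 152758732 to 152833803), which gives BCL-XL and a shorter splice form that is not told apart here, had 4582 and 5175 counts. It stood at 90.1 and 100.1 CPM, 1.11-fold higher (1.07 to 1.16). Both genes thus differed by little, though by more than counting error.

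Bcl2, the founding member of the family (gene 12043, chromosome 1, 106538176 to 106714290), had 1335 counts in the control and 1011 in shGas6. Its level was 26.3 and 19.6 CPM, 1.34-fold lower (1.24 to 1.46). Bcl2l2 (gene 12050, chromosome 14, 54883366 to 54890858) had 1728 and 1710 counts, or 34.0 and 33.1 CPM. Its fold had an interval that included 1 (1.03-fold lower, 0.961 to 1.10). Of the pro-survival genes, Bcl2 was the 1 gene lower by more than counting error.

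The BH3-only genes went in both directions. Bmf encodes a BH3-only protein that is held at the actin cytoskeleton through dynein light chain DLC2 and is linked to death on loss of attachment. Bmf (gene 171543, chromosome 2, 118528757 to 118549686, minus strand) was read 1619 times with the control hairpin and 429 times with the Gas6 hairpin. Its level was 31.8 and 8.30 CPM, 3.84-fold lower (3.45 to 4.28). The whole interval lay beyond 2-fold, as it did, in either direction, for 11.0% of measured genes. Of the 13367 measured genes, 362 (2.71%, Bmf included) had a log2 ratio as low as that of Bmf or lower.

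Bid encodes a BH3-only protein that is cleaved by caspase-8 and so links death receptors to mitochondria. Bid (gene 12122, chromosome 6, 120893119 to 120917062) had 3609 counts in the control and 5616 in shGas6. Its level was 71.0 and 109 CPM, 1.53-fold higher (1.47 to 1.60), and 15.2% of measured genes had a ratio as high or higher. Bcl2l11 encodes BIM, a BH3-only protein that binds all pro-survival members and is restrained by growth factor signalling through ERK. Bcl2l11 (gene 12125, chromosome 2, 128126038 to 128162547) had 1115 and 1503 counts. Its level was 21.9 and 29.1 CPM, 1.33-fold higher (1.23 to 1.43). BIM and BMF both bind dynein light chains, and their genes were on opposite sides of the control.

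Bad, whose protein is inactivated by phosphorylation downstream of AKT, differed by no more than counting error. Bad (gene 12015, chromosome 19, 6941861 to 6951905) had 1583 and 1663 counts, or 31.1 and 32.2 CPM (1.03-fold higher, 0.963 to 1.11). Bik, whose protein acts at the endoplasmic reticulum, was barely detected. Bik (gene 12124, chromosome 15, 83526790 to 83544635) had 37 counts in the control and 25 in shGas6, at 0.728 and 0.483 CPM. A difference was not detectable at this depth, with an interval from 2.61-fold lower to 1.13-fold higher.

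Bak1 encodes the effector BAK, which sits in the outer membrane and forms pores there. Bak1 (gene 12018, chromosome 17, 27019812 to 27028627) had 4496 counts in the control and 3500 in shGas6. Its level was 88.4 and 67.7 CPM, 1.31-fold lower (1.25 to 1.37). In bulk libraries such as these, fewer cells that express a gene and less RNA of that gene per cell cannot be told apart.

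Levels of different genes were compared only per transcript length, as the deposited TPM. On that scale the members spanned from 1.503 TPM (Bik) to 87.5 TPM (Bak1) in shControl and from 1.00 TPM (Bik) to 117 TPM (Bid) in shGas6. In shControl, Bak1 was followed by Mcl1 (76.1 TPM), Bid (73.8), Bcl2l1 (68.2) and Bad (58.0). Far below these came Bcl2l2 (16.0 TPM), Bmf (13.6), Bcl2l11 (8.69), Bcl2 (7.28) and Bik. In shGas6, Bid moved from rank 3 to rank 1, and Bak1 from rank 1 to rank 4 (69.3 TPM), behind Mcl1 (83.0 TPM) and Bcl2l1 (77.0). Bmf moved from rank 7 to rank 9 (3.65 TPM), below Bcl2l11 (12.4 TPM) and Bcl2 (5.75). Bcl2l2 kept rank 6 at 15.5 TPM, and Bad rank 5 at 61.5 TPM. With 1 library each, no spread is available to say which neighbours in these orders differ.

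**Figure D2:**
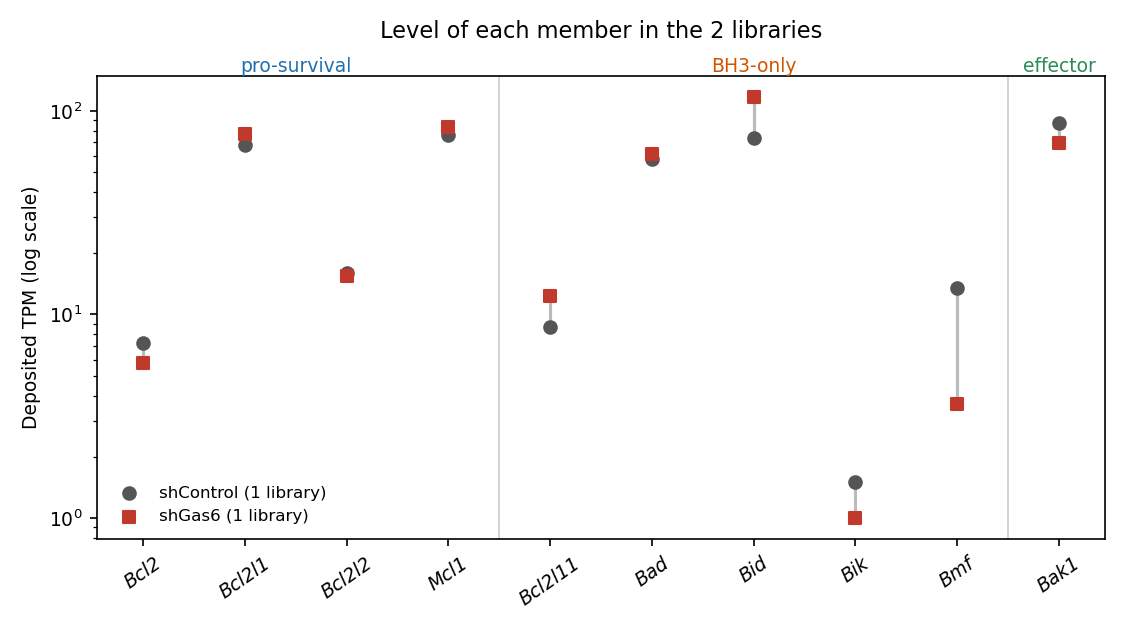
The deposited TPM of each member is on the y axis (log scale), with circles for the shControl library and squares for the shGas6 library, and the members are grouped by role on the x axis. A group of 5 genes lies at 58.0 TPM or more and the others at 16.0 TPM or less in both libraries.

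Among all measured genes, Mcl1 stood at percentile 82.1 by TPM in shControl and 82.9 in shGas6, and Bcl2l1 at 80.1 and 81.6. Bid stood at percentile 81.5 and 88.2, and Bak1 at 84.3 and 79.7. Bmf was at percentile 40.8 in shControl and 17.3 in shGas6. Bcl2 was among the lower ones in both, at 28.4 and 23.3. Of the summed TPM of the 4 pro-survival genes, Mcl1 and Bcl2l1 gave 45.4% and 40.7% in shControl and 45.8% and 42.5% in shGas6, whereas Bcl2 gave 4.34% and 3.17%.

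Summed by role, the direction for the 5 BH3-only members depended on 1 gene. The 4 pro-survival genes summed to 168 TPM in shControl and 181 TPM in shGas6, a ratio of 1.08. The 5 BH3-only genes summed to 156 and 196 TPM, a ratio of 1.26, and Bid gave 47.4% and 59.9% of these sums. Without Bid the BH3-only sum was 81.8 and 78.5 TPM, a ratio of 0.960, and without Bmf it was 142 and 192 TPM, a ratio of 1.35. Bmf gave 8.72% of the BH3-only sum in shControl and 1.87% in shGas6. The sums leave out the BH3-only genes Pmaip1 and Bbc3, which are not members and are described below. Pmaip1 had 84.9 TPM in shControl and 194 TPM in shGas6, and Bbc3 had 4.83 and 12.2 TPM.

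The ratio of the pro-survival to the BH3-only sum was 1.08 in shControl and 0.926 in shGas6. Without Bid it was 2.05 and 2.31, so among these members the order of the libraries turned, and without Bmf it was 1.18 and 0.944. In raw counts, which are not per length, the 4 pro-survival genes had 14453 and 15188 counts, 1.03-fold higher after scaling (1.01 to 1.06). The 5 BH3-only genes had 7963 and 9236 counts, 1.14-fold higher (1.11 to 1.18), and 1.22-fold lower without Bid (1.17 to 1.28). These sums and ratios cover the members only. Because Pmaip1 and Bbc3 are left out, they do not give the balance of pro-survival to all BH3-only genes. The sums are of RNA and give no amount of protein.

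**Figure D3:**
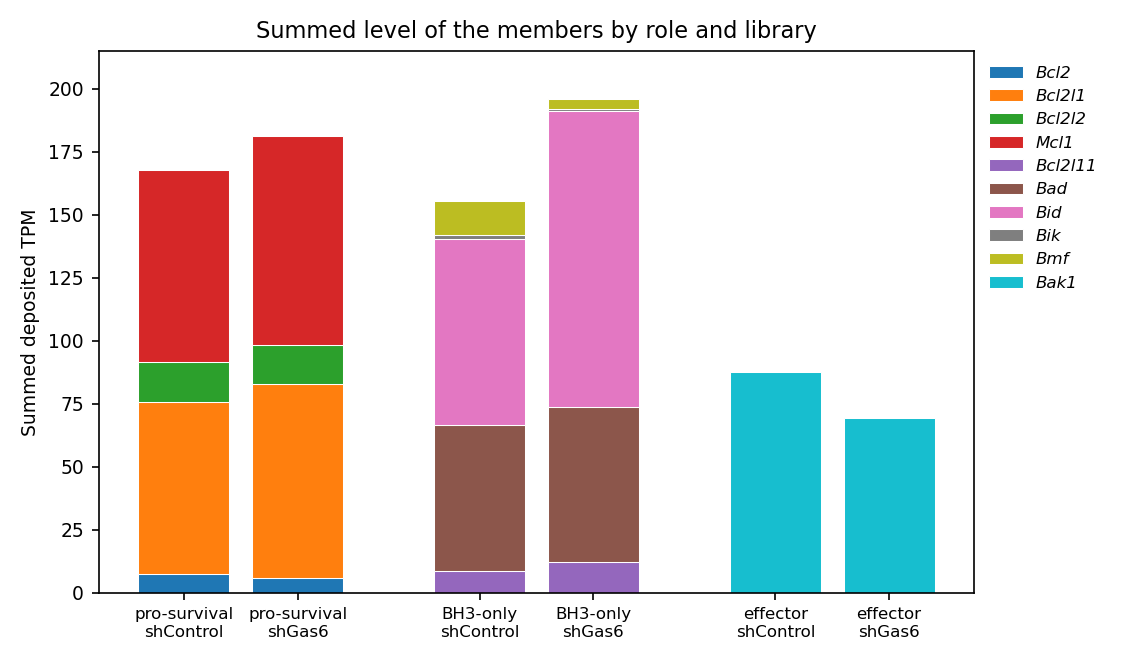
Stacked bars give the deposited TPM summed over the members of each role (y axis, from 0) in each library (x axis), 1 colour per gene. The BH3-only bar is taller in shGas6 (196 against 156 TPM) through its Bid segment, while its Bmf segment shrinks from 13.6 to 3.65 TPM.

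The members lie on 8 chromosomes, with 3 on chromosome 2 (Bcl2l1, Bcl2l11 and Bmf), and coordinates are of GRCm38. Because the libraries differ along some chromosomes, each member was set beside the 50 measured genes nearest to it. The 50 genes around Bmf spanned 4.10 Mb and had a median log2 ratio of -0.07, with 2 lower and 4 higher by 2-fold or more. The measured genes that flank Bmf most closely (named by place, with their values seen) were Srp14 at 73.3 and 62.1 CPM and Bub1b at 145 and 103 CPM. The log2 ratio of Bmf itself was -1.94.

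For Bcl2 the medians of the surroundings were below 0, as was the gene, but its closest neighbours went both ways. The log2 ratio of Bcl2 was -0.43, the median of the 50 nearest genes was -0.26, and that of the 782 measured genes of chromosome 1 was -0.32. The difference between Bcl2 and the median of its nearest genes was -0.17. Those 50 genes spanned 26.6 Mb, so their median is not a close local one. On one side of Bcl2 lay Phlpp1 (0.22) and Zcchc2 (0.26), and on the other Kdsr (-0.62) and Vps4b (-0.05). Whether the surroundings have a part in the Bcl2 value was not tested. Bid (0.61 against 0.11), Bcl2l11 (0.41 against 0.01) and Bak1 (-0.39 against 0.10) differed from their surroundings by 0.39 or more on the log2 scale. Mcl1 (0.07 against 0.13) and Bcl2l1 (0.15 against 0.12) lay near theirs.

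**Figure D4:**
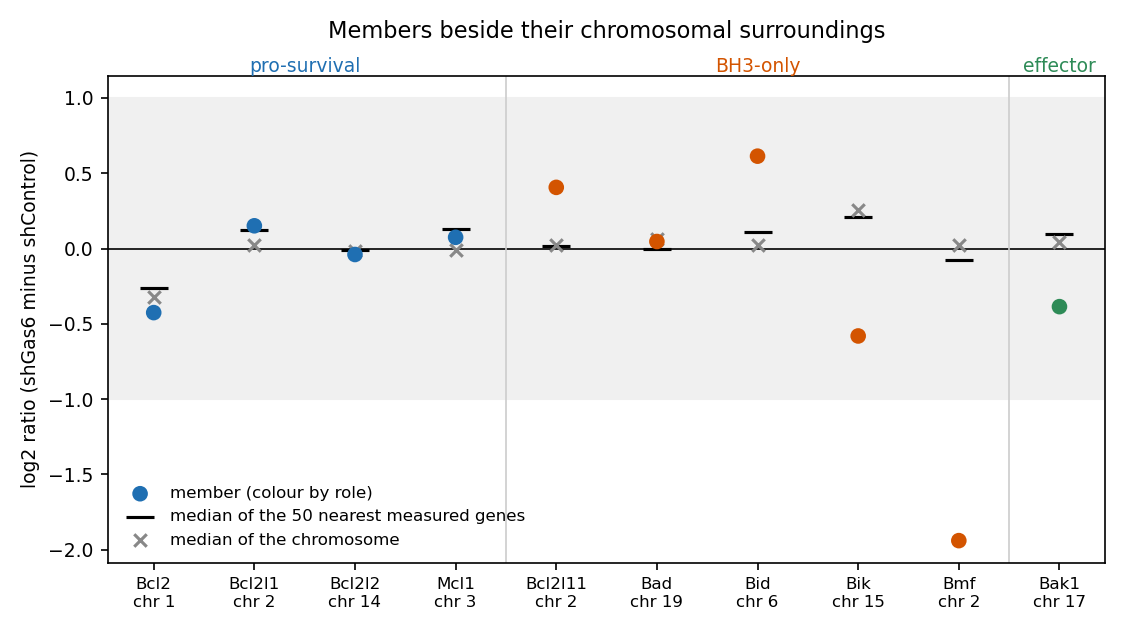
The log2 ratio of each member (points, coloured by role) is drawn beside the median of the 50 nearest measured genes (dash) and of its chromosome (cross), with the chromosome under each name on the x axis. Bmf lies far below both marks, and for Bcl2 both marks are also below 0.

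Some members overlap other gene models, and the strand setting of the counting is not given in the sources used here. Ggnbp1, on the opposite strand, spans all of Bak1 and had 105 counts in shControl and 68 in shGas6. Gpr137, also on the opposite strand, shares 590 bases with Bad and had 1133 and 1120 counts. Without that setting, reads of such pairs cannot be told apart. Genes overlapping the other members had at most 5 counts in either library, and Bmf, Mcl1 and Bcl2l2 overlapped no other gene of the table.

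The bases before the outermost annotated start of Bmf are shown because Bmf is the member that differs most. They are 250 bases at chr2:118549687-118549936 (RefSeq, GRCm38.p6, minus strand, 5′ to 3′), and the capitals mark each CCAAT motif on either strand.
Bmf: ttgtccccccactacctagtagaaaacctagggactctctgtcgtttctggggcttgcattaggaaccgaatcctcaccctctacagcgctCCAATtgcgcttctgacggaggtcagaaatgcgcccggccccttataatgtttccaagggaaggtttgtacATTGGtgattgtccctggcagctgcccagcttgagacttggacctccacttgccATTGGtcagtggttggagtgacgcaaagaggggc

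This window held 3 copies of CCAAT, 1 on the strand of the gene and 2 on its complement, and the marked copies do not overlap each other. It held on neither strand the TATA box (TATAAA), the GC box (GGGCGG), the forkhead motif (TGTTTAC), the AP-1 motif (TGACTCA) or the E-box form CACGTG. Other forms of the E-box were not searched for. Of 32851 windows of the same length before annotated mouse starts, 33.8% held CCAAT and 32.7% held the GC box. The TATA box was in 12.4%, the E-box form CACGTG in 6.02%, the AP-1 motif in 4.46% and the forkhead motif in 3.17%. Of the 15 windows of the 9 members with an entry, 5 held CCAAT (Bad, Bcl2l11 and Bmf) and 7 held the GC box (Bad, Bcl2, Bcl2l11, Bcl2l2, Bid and Mcl1). The forkhead motif was in 1, of Bcl2l11, and the others were in 0. A match is a description of the letters and no evidence of binding.

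Of 16 further genes of the BCL2 family, 11 were measured. Of these, 4 (36.4%, against 8.64% of all measured genes) were higher in shGas6 by 2-fold or more and 0 lower, and their median log2 ratio was 0.41 against -0.01 over all measured genes. This list and those below were chosen with earlier results of these data known. Their shares beside all genes are therefore a description and no result about the lists. Bcl2l15, a family member of gastrointestinal tissue, had 26.2 and 97.9 CPM, 3.74-fold higher (3.52 to 3.97). Bcl2l14 (BCL-G) had 8.497 and 28.2 CPM, 3.31-fold higher (2.97 to 3.70). The BH3-only genes Bbc3 (PUMA) and Pmaip1 (NOXA), known p53 targets, were at 4.603 and 11.3 CPM and at 114 and 251 CPM. These are 2.46-fold (2.11 to 2.88) and 2.21-fold higher (2.14 to 2.28). NOXA is known to bind MCL-1 in particular. Once the median of its 50 nearest genes was subtracted, Pmaip1 had a log2 ratio of 0.89, under 2-fold, which left 3 of the 4.

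In CPM, the other effector genes of the family differed by less than Bak1. This did not hold for Bok once the median of the nearest genes was subtracted. The log2 ratios were then -0.48 for Bak1, -0.44 for Bax and 0.49 for Bok. Bax had 75.1 and 70.8 CPM, 1.06-fold lower (1.01 to 1.11), and Bok, another effector-like gene, at 107 and 130 CPM, 1.21-fold higher (1.17 to 1.26). Bnip3 and Bnip3l, which act in mitophagy, were 1.91-fold (1.85 to 1.97) and 1.33-fold higher (1.30 to 1.37). Bcl2l12 had 10.5 and 6.11 CPM, 1.72-fold lower (1.49 to 1.98). The near-identical genes Bcl2a1a, Bcl2a1b and Bcl2a1d, which may share reads, had at most 9 counts each. Hrk and Bcl2l10 were at 0 counts in each library, a limit of 0.0590 CPM.

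**Figure D5:**
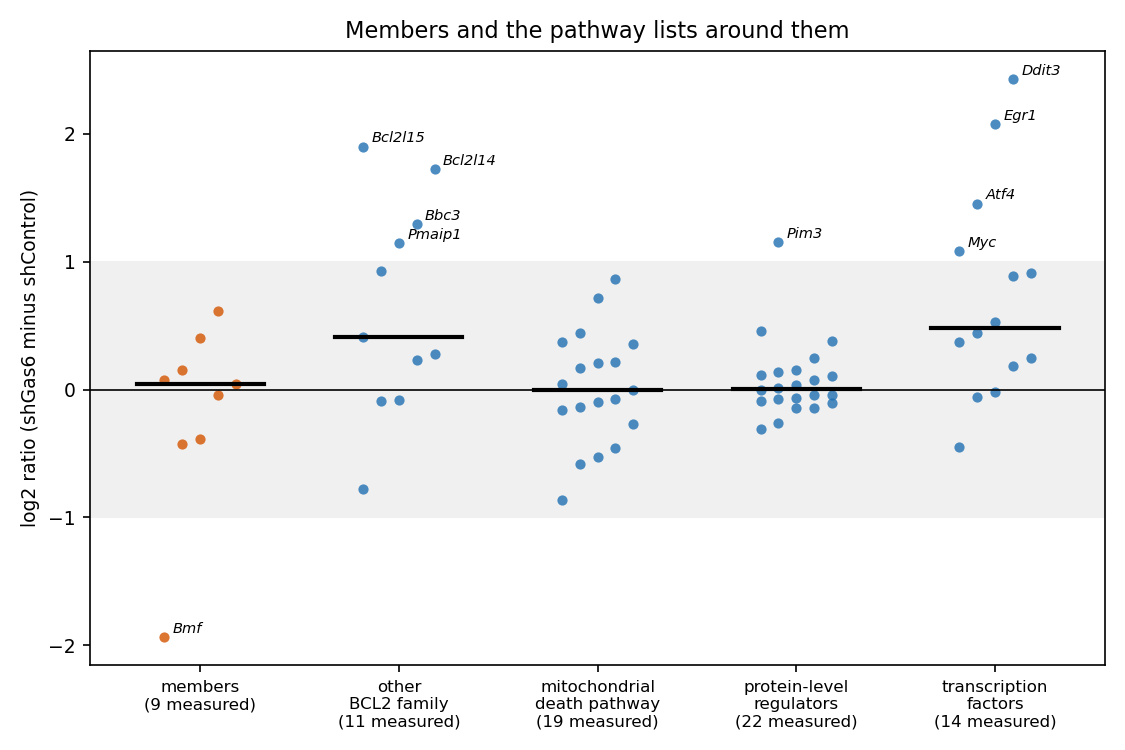
Each point is the log2 ratio (y axis, shGas6 minus shControl) of 1 measured gene, for the members and the 4 pathway lists (x axis), with a black bar at each list's median and names for genes at least 2-fold apart. The members' median is 0.05, and that of the other BCL2 family genes is 0.41.

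The list of the mitochondrial death pathway holds genes of mitochondrial proteins as well as caspases and their inhibitors. Of its 19 measured genes, 0 were apart by 2-fold or more, against 14.8% of all measured genes, and the median log2 ratio was -0.01. The executioner caspase gene Casp6 had 10.9 and 7.27 CPM, 1.502-fold lower (1.32 to 1.72). The inhibitor of apoptosis genes Birc3 and Xiap were 1.82-fold (1.75 to 1.90) and 1.64-fold higher (1.58 to 1.71), and Birc3 alone passed 2-fold (log2 1.04) once the median of its nearest genes was subtracted. In this list 9 ratios were above 0 and 10 below.

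Of 22 measured genes that act on BCL2 proteins after translation, 21 (95.5%) lay within 1.5-fold, as did 71.4% of all measured genes, and their median log2 ratio was 0.01. The remaining gene was Pim3, a kinase that phosphorylates BAD, with 78.6 CPM in the control and 175 CPM in shGas6. It was 2.22-fold higher (2.14 to 2.31), and under 2-fold once the median of its 50 nearest genes was subtracted. Ywhaz, a 14-3-3 protein of the kind that holds phosphorylated BAD, was 1.37-fold higher (1.36 to 1.39), and Pim1 1.30-fold higher (1.23 to 1.38). Dynll1, the dynein light chain that binds BIM, was 1.24-fold lower (1.21 to 1.28), and Fbxw7, a ubiquitin ligase subunit for MCL-1, 1.20-fold lower (1.07 to 1.34).

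Of 14 transcription factors known to act on genes of the family, 4 (28.6%, against the same 8.64%) were higher in shGas6 by 2-fold or more and 0 lower, and the median log2 ratio was 0.48. As this list too was chosen with earlier results known, the share is a description only. Ddit3 (CHOP), a stress factor known to raise BIM and to lower BCL2 transcripts, had 18.2 and 98.3 CPM, 5.40-fold higher (5.03 to 5.80). Egr1 was 4.23-fold (4.08 to 4.38), Atf4 2.74-fold (2.69 to 2.80) and Myc 2.12-fold higher (2.06 to 2.19). With the median of its 50 nearest genes subtracted, the log2 ratio of Myc was 0.82, under 2-fold, which left 3 of the 4. Foxo3 and Foxo1, known activators of Bcl2l11, were 1.88-fold (1.76 to 2.01) and 1.85-fold higher (1.78 to 1.92), and Rela 1.44-fold (1.38 to 1.51). Hif1a was 1.37-fold lower (1.35 to 1.38). The part of these factors in the members' levels was not tested.

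The libraries held 50756676 counts (shControl) and 51807140 counts (shGas6). Gas6 was at 29.0% of the control level in shGas6, with 2480 and 731 counts. Of 8 epithelial markers, 5 were measured and all 5 were higher in shGas6. Krt7 was 9.28-fold, Krt18 2.40-fold, Cdh1 1.95-fold, Krt8 1.47-fold and Krt19 1.41-fold higher, with Krt8 at 1793 and 2637 CPM, while Epcam had 32 and 26 counts, Cldn4 2 and 2, and Cldn7 0 in both. The summed CPM of the epithelial markers was 4439 and 6867, and the part of this difference in the results above was not tested. The 7 leukocyte markers summed to 5.59 and 4.66 CPM, of which Cd68 gave 4.82 and 4.45, and Tyrobp was at 0 in both. The 6 fibroblast markers summed to 1.83 and 2.24 CPM, with Col1a2 and Thy1 at 0. The 4 endothelial markers summed to 12.4 and 4.29 CPM, nearly all from Cdh5 (11.8 and 3.73 CPM), with Kdr and Tek at 0.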

How the data were processed

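Poly(A) RNA of 1 shControl and 1 shGas6 culture was sequenced from stranded libraries, per the labels' protocols. Per the submitters' processing notes, the read trimmer was Trimmomatic and the genome GRCm38 (mm10). Not given in the sources used here are aligner, counter and strand setting. The authors deposited raw read counts per NCBI gene, and these were the basis of all folds. TPM values, scaled by the authors per length and library, were used for levels between genes, and the deposited FPKM values only as an alternative.

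TMM factors from edgeR 4.0.16 in R 4.3.3 scaled the counts. The log2 ratio adds a pseudocount of 0.5 to the scaled counts, and folds add none. Intervals are exact (Clopper-Pearson, 95%, scipy 1.17.1) for the split of the counts. They cover counting error only, and PCR copies of a molecule are not independent. The floor for 0 counts is 3 counts, or 0.0590 and 0.0580 CPM in shControl and shGas6. A gene with 1 CPM in at least 1 library was measured. With 1 library per group no test or p-value was possible.

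The members and the 4 lists were chosen with earlier results of these data known. Named genes are all members, Gas6, the markers, and from each list those at least 2-fold apart, the next 4 by absolute log2 ratio, and Bax, Bok, Bbc3 and Pmaip1. A gene that this rule takes is not reported here. Genes named outside this rule are Bcl2l10, Hrk, the Bcl2a1 genes and genes that overlap or flank a member. Positions came from the RefSeq annotation of GRCm38.p6 by gene identifier (45675 of 45777 rows). Simulated counts were used to check the scripts. The alternatives were scaling by DESeq2 1.42.0, by the upper quartile and by the total count, adding 5 in place of 0.5, FPKM or TPM in place of counts, other filters and thresholds, and subtraction of the median of the 50 nearest genes.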

Additional observations from a re-analysis of the deposited data

How the results depend on the processing

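No paired analysis was possible because each group has 1 library. The log2 ratio of Bmf (-1.94) stayed between -1.98 and -1.86 over 7 settings, and that of Bid between 0.51 and 0.67. Of 70 such values over the 10 members, 64 lay within the gene's counting interval and 6 moved further. All but 1 of the 6 came from subtraction of the median of the 50 nearest genes (Bcl2, Bcl2l1, Mcl1, Bid and Bak1). The remaining 1 was Mcl1 with TPM. The sign changed in 1 of them, Mcl1 (0.07), at -0.06 after subtraction of the median of the 50 nearest genes. The number of members at least 2-fold apart (0 higher, 1 lower) changed only with the threshold, to 1 higher at 1.5-fold and 0 lower at 4-fold. At a whole interval past 1.5-fold, added after the data were seen, it was again 0 and 1.

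The summed level (log2 ratio, TPM) of the pro-survival genes was 0.11, and 0.0677 with FPKM and 0.0468 with scaled counts. That of the BH3-only members was 0.33, and 0.29 with FPKM and 0.19 with scaled counts. It was 0.44 without Bmf and -0.0584 without Bid, the last 2 added after the data were seen.

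For all measured genes, 1155 higher and 828 lower became, by construction, 4202 and 3339 with no filter beyond 1 count, 729 and 466 with a minimum of 5 CPM, 2145 and 1679 past 1.5-fold, 422 and 342 past 4-fold. For the other BCL2 family genes the median (0.41) was 0.46 with TPM, 0.49 after the position correction, where 3 in place of 4 genes were higher, and 0.31 without a filter, where 1 gene was lower. The same list had 1 lower gene at 1.5-fold and 0 higher at 4-fold. The median of the mitochondrial death pathway (-0.0059) was -0.0473 with the upper quartile, 0.0434 with TPM and 0.0701 after the position correction. That list had 1 gene higher after the position correction, and 2 higher and 2 lower at 1.5-fold. The regulators acting on the proteins had 0 genes higher after the position correction and at 4-fold. The transcription factor median (0.48) was 0.39 after the position correction, where 3 in place of 4 genes were higher, and 2 genes were higher at 4-fold. In the lists too, changes with the threshold or the filter are by construction. The gene lower without a filter was Bcl2a1d, with 9 counts in shControl and 3 in shGas6. For the other changes the cause was not tested.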

Other observations

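The deposited FPKM and counts together imply a length by which each gene was scaled in each library. How the authors set this length is not given in the sources used here, and whether the mix of transcripts differed was not tested. Relative to the median gene, the ratio of this length in shGas6 to that in shControl was 0.964 for Bcl2l11 and 0.976 for Bcl2, the lowest of the members. It was 1.03 for Bcl2l2 and 1.03 for Bik, the highest, and 1.00 for Bmf. For Bcl2l2 and Bik only 1 reference transcript each was read for the BH3 stretch, and Bik had 37 and 25 counts. All 10 lay within the central 95% of measured genes (0.901 to 1.10).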
